A study of Homo sapiens with 2 samples.

Results

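The genes described here are 10 regulators of DNA and histone modification that are mutated, rearranged or targeted in leukaemia: DNMT1, DNMT3A, TET2, TET3, ASXL1, EZH2, EED, SUZ12, KMT2A and DOT1L. They were taken from a fixed list of names, out of 20037 protein-coding genes of the RefSeq annotation of GRCh38.p14, and a peak was counted for a gene when it lay inside the gene record or within 50 kb of it. This gave 43 of 19671 peaks in ERG cells and 19 of 9161 peaks in Vector cells. Both libraries are chromatin immunoprecipitations of histone H3 acetylated at lysine 27 (H3K27ac), which is found at active promoters and enhancers. The cells were F36P, a human line established from erythroid leukaemia. The ERG group, labelled ERG overexpression, was transduced with MSCV-PIG-AM-ERG, and the Vector group, labelled WT, with MSCV-PIG. ERG is a transcription factor of the ETS family, and the labels do not explain AM. Puromycin selection lasted 4 days at 1 µg/ml in both groups. Each group held 1 library from this single line, so the spread between cultures is unknown, the groups were not tested against each other, and every interval below covers counting error only. The libraries were made to learn how ERG blocks erythroid differentiation.

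The listed genes fall into 4 systems. DNMT1 copies methyl marks of DNA after replication and DNMT3A places new ones, whereas TET2 and TET3 oxidise methylcytosine and so start its removal. EZH2, EED and SUZ12 form the core of the Polycomb repressive complex PRC2: EZH2 is the enzyme that methylates lysine 27 of histone H3, EED reads that methyl mark and SUZ12 holds the complex together. A given lysine 27 carries either a methyl or an acetyl group, not both at once. ASXL1 is a cofactor of the deubiquitinase BAP1, which removes ubiquitin from histone H2A. KMT2A, also called MLL, is a histone H3 methyltransferase that is broken and fused to other genes in leukaemia, and DOT1L is a histone H3 methyltransferase on which many KMT2A fusions depend. Mutations of TET2, ASXL1, EZH2 and DNMT3A are frequent in myeloid neoplasms.

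Peaks covered 15.0 Mb in ERG cells, against 5.30 Mb in Vector cells. The number of fragments at each summit was recovered from the deposited fold and p-value and came out whole, within a relative error of 0.0001, for all 19671 and all 9161 peaks. The genome-wide background came to 2.31 fragments for ERG and 1.60 for Vector, and their quotient, 1.44, served as the relative depth. Among the erythroid marker genes, 8 had a peak within 1 kb of their start in ERG cells and also in Vector cells, ALAS2 had one in ERG cells alone, and HBG1 had none. HBG1 is nearly identical to HBG2, which is among the 8, so the presence or absence of a peak at either gene is uncertain. Of 15 marker genes of T cells, B cells, myeloid cells and hepatocytes, CD79A and MPO had a start peak in ERG cells and none had one in Vector cells.

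The promoters of the genes on which the results turn are shown first, as the 250 bases before an annotated start, 5′ to 3′ on the strand of the gene (RefSeq, GRCh38.p14). The 2 DNMT3A starts shown differed in which library marked them, and TET2 had the highest ratio between the libraries and EZH2 the lowest. ASXL1 and KMT2A were the listed genes where CCGGAA was found. Capitals mark GGGCGG (GC box) for DNMT3A and TET2, CCGGAA (a form of the ETS motif) for ASXL1 and KMT2A, and CCAAT for EZH2. Each is marked on either strand, and other forms of the ETS motif were not searched.
DNMT3A upstream start, chr2:25341926-25342175, minus strand: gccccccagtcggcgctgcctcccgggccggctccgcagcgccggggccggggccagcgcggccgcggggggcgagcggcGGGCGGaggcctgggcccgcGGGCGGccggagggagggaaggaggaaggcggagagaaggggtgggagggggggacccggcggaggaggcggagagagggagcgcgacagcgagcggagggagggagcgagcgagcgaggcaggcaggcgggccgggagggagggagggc
DNMT3A internal start, chr2:25252132-25252381, minus strand: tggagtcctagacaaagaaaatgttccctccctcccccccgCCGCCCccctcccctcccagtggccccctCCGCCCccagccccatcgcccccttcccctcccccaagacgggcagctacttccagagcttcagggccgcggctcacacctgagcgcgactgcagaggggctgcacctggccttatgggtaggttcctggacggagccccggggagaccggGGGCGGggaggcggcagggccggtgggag
TET2, chr4:105146626-105146875, plus strand: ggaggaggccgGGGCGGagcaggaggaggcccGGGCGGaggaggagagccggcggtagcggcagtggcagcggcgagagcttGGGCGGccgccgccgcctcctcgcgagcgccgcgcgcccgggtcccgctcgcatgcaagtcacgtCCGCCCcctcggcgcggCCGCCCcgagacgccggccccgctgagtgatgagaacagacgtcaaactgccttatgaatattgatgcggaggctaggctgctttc
ASXL1, chr20:32358081-32358330, plus strand: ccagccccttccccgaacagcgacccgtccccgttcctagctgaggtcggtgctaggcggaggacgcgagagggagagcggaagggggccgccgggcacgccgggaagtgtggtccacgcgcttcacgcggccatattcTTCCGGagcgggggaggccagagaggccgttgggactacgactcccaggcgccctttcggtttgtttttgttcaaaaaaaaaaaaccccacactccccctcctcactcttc
KMT2A, chr11:118436242-118436491, plus strand: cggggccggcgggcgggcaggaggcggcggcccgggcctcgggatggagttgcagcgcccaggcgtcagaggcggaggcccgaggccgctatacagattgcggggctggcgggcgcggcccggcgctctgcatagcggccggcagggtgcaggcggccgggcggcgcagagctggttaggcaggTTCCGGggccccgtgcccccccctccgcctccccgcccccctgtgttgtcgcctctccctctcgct
EZH2, chr7:148884292-148884541, minus strand: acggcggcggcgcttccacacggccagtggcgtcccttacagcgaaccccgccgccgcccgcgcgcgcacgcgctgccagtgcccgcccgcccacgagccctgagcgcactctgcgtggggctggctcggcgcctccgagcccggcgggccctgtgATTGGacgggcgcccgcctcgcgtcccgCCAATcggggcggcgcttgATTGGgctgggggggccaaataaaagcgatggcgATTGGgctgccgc

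The table held 19 starts of 9 listed genes, several of which overlap, and DOT1L had no entry. The promoters were rich in CpG, with 10 to 39 CpG pairs in 250 bases, and 17 of 19 exceeded the median of 11 over 35116 promoters. CCGGAA was found before 3 of the 19 starts, those of KMT2A and 2 overlapping starts of ASXL1, and in 14.5% of all promoters. CCAAT was found before 1 start each of TET3, EZH2, EED and SUZ12, in 32.0% of all promoters, and the EZH2 window above held it 4 times. GGGCGG was found before 12 of 19 starts, in 42.6% of all promoters. The erythroid factor motif AGATAA was in none of the 19 and in 9.17% of all promoters, and TTTGGCGC (an E2F motif) was in none and in 0.550%. A match of letters is not evidence of binding, and ERG binding was not measured in these libraries.

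Acetylation at the gene starts was a shared feature of both libraries. A start peak, meaning a peak within 1 kb of an annotated start (for DOT1L, of either end of the record), was present in both libraries at 9 of the 10 genes, where 31.1% of all coding genes had one. DOT1L had it in ERG cells alone, as did 15.4% of all coding genes. No listed gene had it in Vector cells alone, or lacked it in each library, against 0.339% and 53.1% of all coding genes. All 19 Vector-library peaks at these loci overlapped an ERG-library peak by at least 1 bp, and over the whole Vector list 822 of 9161 peaks overlapped none.

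**Figure D1:**
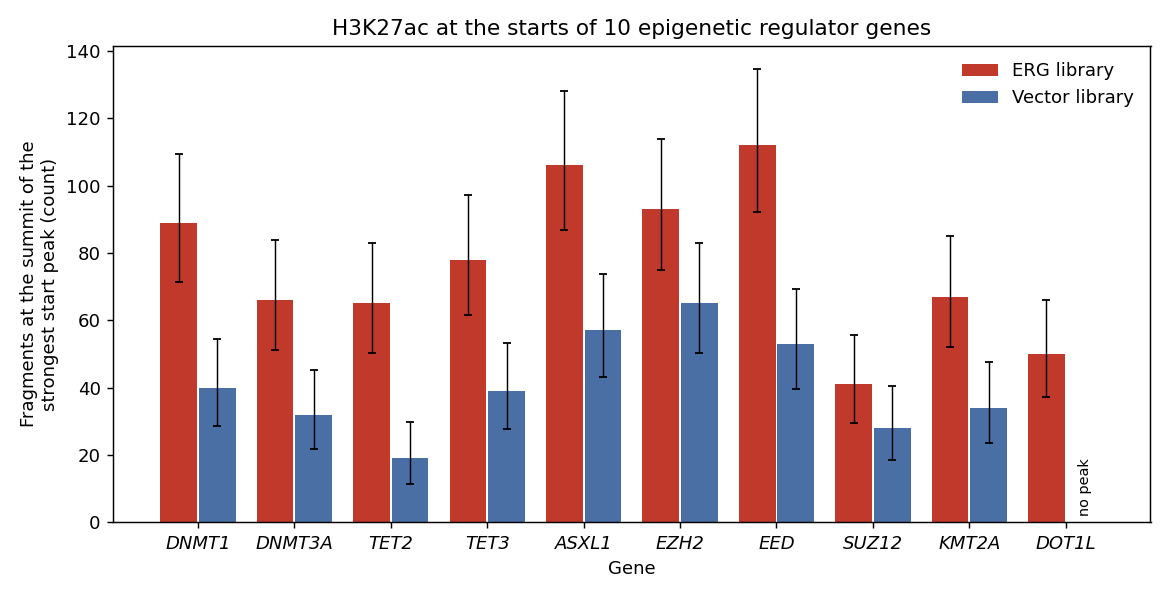
Fragments at the summit of the strongest start peak of each gene in ERG cells (left bar) and in Vector cells (right bar); error bars are exact 95% Poisson intervals. The ERG library lies between 41 (SUZ12) and 112 (EED) fragments, the Vector library between 19 (TET2) and 65 (EZH2), and DOT1L has no Vector-library start peak.

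DNMT1, the maintenance DNA methyltransferase, had a start peak on chromosome 19 from 10193741 to 10195003 in ERG cells and from 10194228 to 10194948 in Vector cells (hg38), with 89 fragments in ERG cells and 40 in Vector cells at the summit. Divided by the relative depth, the ratio was 1.54 (exact conditional 95% interval 1.05 to 2.30). This is close to the median of 1.49 over 6198 coding genes whose start peaks overlapped between the libraries. That median lies above 1, so the ratios of the listed genes are read against it and not against 1. Shares and percentiles of all shared start peaks below are taken over these 6198 genes. A peak at the starts of neighbouring genes counts for each of them.

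TET2, a methylcytosine dioxygenase, stood highest among the listed genes. Its single peak inside the gene or within 50 kb, on chromosome 4 from 105146305 to 105147652 in ERG cells and from 105146299 to 105147431 in Vector cells, had 65 fragments in ERG cells and 19 in Vector cells. The depth-scaled ratio was 2.37 (1.40 to 4.18), at percentile 95.9 of the 6198 genes with a shared start peak. Within that same set of genes, the TET2 peak ranked at percentile 51.6 in ERG cells and 18.3 in Vector cells. The interval includes the median of all shared start peaks. The local background moved with the peak, 9.45 fragments in ERG cells and 3.56 in Vector cells, and its part in the ratio was not tested. The deposited fold was 6.32 in ERG cells and 4.39 in Vector cells. The summit lay 292 bp downstream of the start at 105146876 in ERG cells and 344 bp downstream in Vector cells. The peak also overlaps the uncharacterised record LOC124900868.

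TET3, the other TET family enzyme of the list, had 78 fragments in ERG cells and 39 in Vector cells at the summit of its shared start peak on chromosome 2, a depth-scaled ratio of 1.39 (0.932 to 2.09). A second ERG-library peak, from 73985623 to 73986312 with 56 fragments, lay downstream of it, within 1 kb of the start at 73984910, and had no Vector-library counterpart. The second annotated start of TET3, at 74002692, had no peak within 1 kb in either library.

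DNMT3A, the de novo DNA methyltransferase, showed a difference between its own starts. The internal starts near 25252131 on chromosome 2, from which shorter transcripts begin, had a peak in both libraries, 25251249 to 25252206 with 66 fragments in ERG cells and 25251333 to 25252181 with 32 fragments in Vector cells. The depth-scaled ratio was 1.43 (0.923 to 2.25). The upstream starts, from 25341925 to 25342590, had a peak in ERG cells alone, 25341500 to 25341999, with 47 fragments over a background of 7.23. Counted by the ends of the gene record, which take in the upstream starts but not the internal ones, DNMT3A therefore joined DOT1L as a gene with its peak in ERG cells alone. With fragments and background divided by 2.07, the median ratio over all shared peaks, the upstream peak would hold 22.7 fragments over 3.50, a −log10 p-value of 12.0. The weakest peak of the Vector list had 3.98. Under the same scaling 73.5% of all unshared ERG-library peaks would pass that value, and the part of depth in this difference was not tested.

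Of the PRC2 genes, EED and EZH2 were among the more strongly acetylated shared starts of both libraries, and SUZ12 was not. This was not particular to PRC2, because ASXL1 ranked at percentile 83.1 of the shared start peaks in ERG cells and 91.0 in Vector cells. EED, the subunit that reads the methyl mark, had 112 fragments in ERG cells and 53 in Vector cells on chromosome 11, in peaks from 86244456 to 86245163 in ERG cells and from 86244529 to 86245140 in Vector cells. Its ratio was 1.46 (1.05 to 2.07), its summits lay 5 bp apart, and it ranked at percentile 85.8 of the shared start peaks in ERG cells and 88.6 in Vector cells. EZH2, the catalytic subunit, had 93 fragments in ERG cells and 65 in Vector cells on chromosome 7 (148883352 to 148885233 in ERG cells and 148883392 to 148885141 in Vector cells). It ranked at percentile 76.4 in ERG cells and 94.5 in Vector cells. Its ratio of 0.991 (0.714 to 1.38) was the lowest of the list, at percentile 7.31 of all shared start peaks, and it is the listed gene whose interval does not reach the median of 1.49. Both peaks of EZH2 span its 2 annotated starts. Their summits lay 764 bp apart, at -621 bp from the start at 148884291 in ERG cells (upstream) and at 143 bp in Vector cells (downstream). The ratio therefore compares the highest point of each library and not a single position. The ERG-library peak of EZH2 also overlaps the record LOC124901767, and the Vector-library peak overlaps no other gene record. SUZ12, the scaffold subunit, had 41 fragments in ERG cells and 28 in Vector cells on chromosome 17, at 31936399 to 31937968 in ERG cells and 31937046 to 31937623 in Vector cells, a ratio of 1.01 (0.612 to 1.70), and ranked at percentile 21.0 in ERG cells and 46.6 in Vector cells. With depth taken from the median ratio over all shared peaks, the ratios of EZH2, SUZ12 and TET2 were 0.692 (0.499 to 0.966), 0.709 (0.428 to 1.19) and 1.66 (0.980 to 2.92).

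ASXL1, the BAP1 cofactor, had 106 fragments in ERG cells and 57 in Vector cells, on chromosome 20 at 32358205 to 32359501 in ERG cells and 32358329 to 32359173 in Vector cells, a ratio of 1.29 (0.925 to 1.81). All 3 of its annotated starts lay inside the peak of both libraries. KMT2A had 67 fragments in ERG cells and 34 in Vector cells on chromosome 11, a ratio of 1.36 (0.890 to 2.13). Its start peak was the widest of the list in ERG cells, 2434 bp (118435650 to 118438083), against 1027 bp (118436475 to 118437501) in Vector cells. DOT1L had 50 fragments over a background of 11.1 in ERG cells, on chromosome 19 from 2163947 to 2164637, at the lower-coordinate end of its record, and no peak there in Vector cells. The same peak overlaps the end of the record of AP3D1, an adaptor subunit of vesicle transport, at 2164616, so acetylation here cannot be assigned to DOT1L rather than to AP3D1. Divided by 2.07, that peak would hold 24.2 fragments over 5.36, a −log10 p-value of 9.33.

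Over the 9 genes with a shared start peak, the median depth-scaled ratio was 1.39. TET2 and DNMT1 lay above 1.5, which is 2 of 9 genes, where 49.4% of all shared start peaks did so. None lay below the inverse of 1.5, where 0.823% of all shared start peaks did. For 8 of 9 genes the interval included the median of all shared start peaks. Apart from TET2, EZH2 and SUZ12, the ratios ran from 1.29 to 1.54, and the counting intervals of these 6 overlapped one another. The SUZ12 interval also overlapped all the others, and the TET2 and EZH2 intervals were the only pair that did not overlap.

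**Figure D2:**
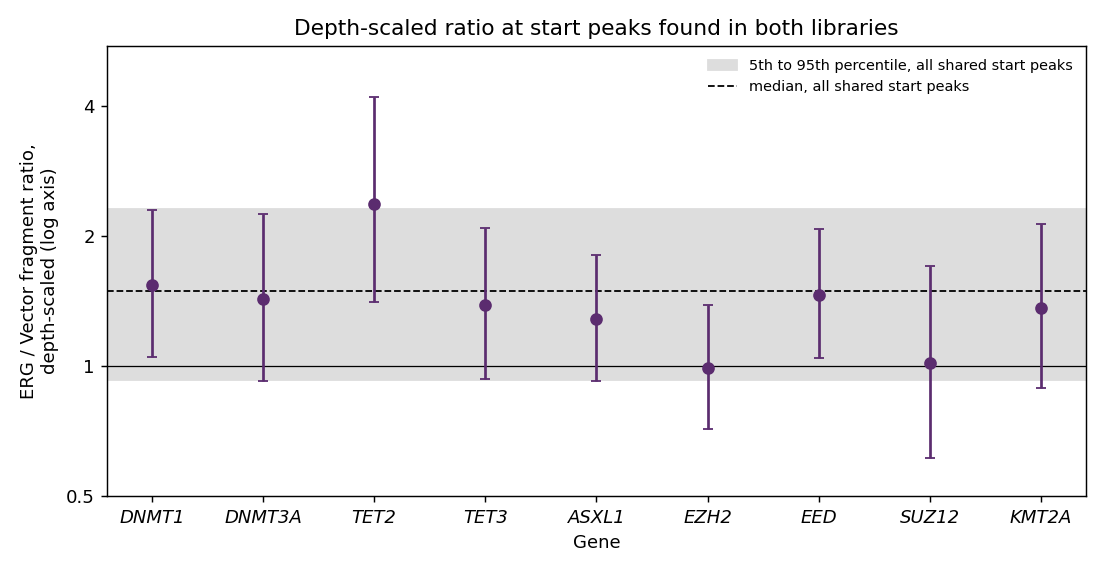
Depth-scaled ratio of ERG-library to Vector-library fragments at the shared start peak of 9 genes, on a log axis. Points are ratios and bars exact conditional 95% intervals. The grey band spans the 5th to 95th percentile over 6198 genes with a shared start peak (0.926 to 2.31), and the dashed line is their median, 1.49. TET2 lies above the band at 2.37, and EZH2 (0.991) and SUZ12 (1.01) lie near 1.

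The start peaks were wider in ERG cells at all 9 genes, with median widths of 1297 bp in ERG cells and 845 bp in Vector cells. Over all shared start peaks the medians were 1034 bp in ERG cells and 579 in Vector cells, and the median ratio of widths was 1.58. DNMT1 (1.75), KMT2A (2.37) and SUZ12 (2.72) lay above that ratio, and the other genes lay below it, down to 1.08 at EZH2. How many of all shared start peaks were wider in ERG cells was not counted. SUZ12 had the largest ratio of widths, 1570 bp in ERG cells and 578 in Vector cells, followed by KMT2A, whereas EZH2 had nearly the same width in both, 1882 bp in ERG cells and 1750 in Vector cells. The deposited fold, which is relative to the local background of each library, was higher in ERG cells at DNMT1 (5.79 in ERG cells and 4.59 in Vector cells), DNMT3A, TET2 and EED, and lower at TET3, ASXL1, EZH2, SUZ12 (6.16 in ERG cells and 7.72 in Vector cells) and KMT2A. The quotient of the folds ran from 0.797 at SUZ12 to 1.44 at TET2, against a median of 1.14 over all shared start peaks.

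In the whole ERG list, the shared and unshared peaks at these loci were divided much as over the whole genome. Of the 43 ERG-library peaks, 25 were unshared, 58.1% (exact 95% interval 42.1 to 73.0), close to the 58.9% of all ERG-library peaks. With the ERG list limited to as many peaks as the Vector list holds, 10 of 26 were unshared (38.5%), a minority, against 28.5% of all peaks so limited. At the start of any coding gene, 7 of 21 so limited were unshared (33.3%), against 19.7% of all. Elsewhere inside coding genes it was 0 of 2, against 56.0%, and outside them 3 of 3, against 43.8%. In the whole list, unshared peaks made up 3 of 12 at the starts of listed genes, 8 of 9 elsewhere inside them, 7 of 13 at the start of a neighbouring gene and 7 of 9 at other places within 50 kb. Classed by any coding gene and not by the listed ones, the unshared made up 10 of 25 at a gene start, 8 of 10 elsewhere inside a gene and 7 of 8 outside genes. Over all ERG-library peaks the same positions had 39.1%, 83.8% and 71.9% unshared, so the lower unshared share at gene starts was a feature of the whole list. The unshared peaks had a median of 39 fragments and 580 bp, against 65.5 fragments and 1105.5 bp for the shared ones. The 7 at neighbouring starts, at SHFL, BOLA3, MOB1A, UTP6, LRRC37B, ATP5MG and the pair PLEKHJ1 and SF3A2, cannot be assigned to the listed genes. Exon and intron positions were not used here.

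**Figure D3:**
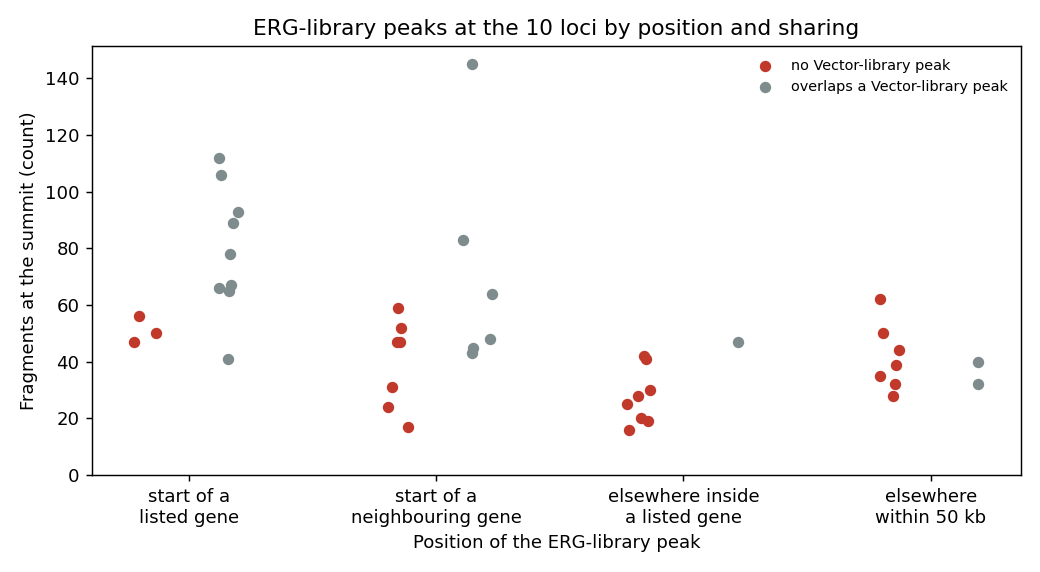
Fragments at the summit of the 43 ERG-library peaks at the 10 loci by position, with peaks that have no Vector-library peak on the left of each pair and peaks that overlap one on the right; each point is a peak. Unshared peaks lie at 16 to 62 fragments and shared peaks at 32 to 145, and elsewhere inside the listed genes 8 of 9 are unshared, where 83.8% of all ERG-library peaks elsewhere inside coding genes are.

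The strongest unshared peak lay 41.8 kb upstream of EED, on chromosome 11 from 86202434 to 86202989, with 62 fragments over a background of 8.19, and no other gene record overlapped it. DNMT3A had 3 such peaks past the far end of the gene, at 4.23, 5.52 and 17.1 kb, with 39, 50 and 28 fragments, and 1 inside it, from 25314194 to 25315700, with 42 fragments. At 1507 bp this was the widest of the unshared peaks. TET3 had 3 inside it, with 20, 30 and 25 fragments, and 1 at 12.0 kb before its record, within the record of DGUOK-AS1. EZH2, ASXL1 and KMT2A each had a single unshared peak inside the gene, with 28, 19 and 16 fragments. DOT1L had one inside it with 41 fragments and one 30.4 kb past its higher-coordinate end with 44. DNMT1 had one 41.3 kb upstream with 35 fragments, on chromosome 19 from 10236283 to 10236680.

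The single shared peak inside a listed gene away from the starts was in TET3, 117.8 kb downstream of its second annotated start. It ran from 74119994 to 74120981 in ERG cells and from 74120038 to 74120557 in Vector cells, with 47 fragments in ERG cells and 24 in Vector cells. It overlaps the pseudogene FNBP1P1, whose sequence may be repeated elsewhere in the genome, so this position is uncertain. Of the 25 unshared peaks, 20 would still pass the lowest −log10 p-value of the Vector list when fragments and background are divided by 2.07, and 23 when they are divided by the relative depth of 1.44. The 5 that would not pass were those inside ASXL1 and KMT2A and all 3 inside TET3. Over all 11579 unshared ERG-library peaks, 73.5% and 92.3% would pass.

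**Figure D4:**
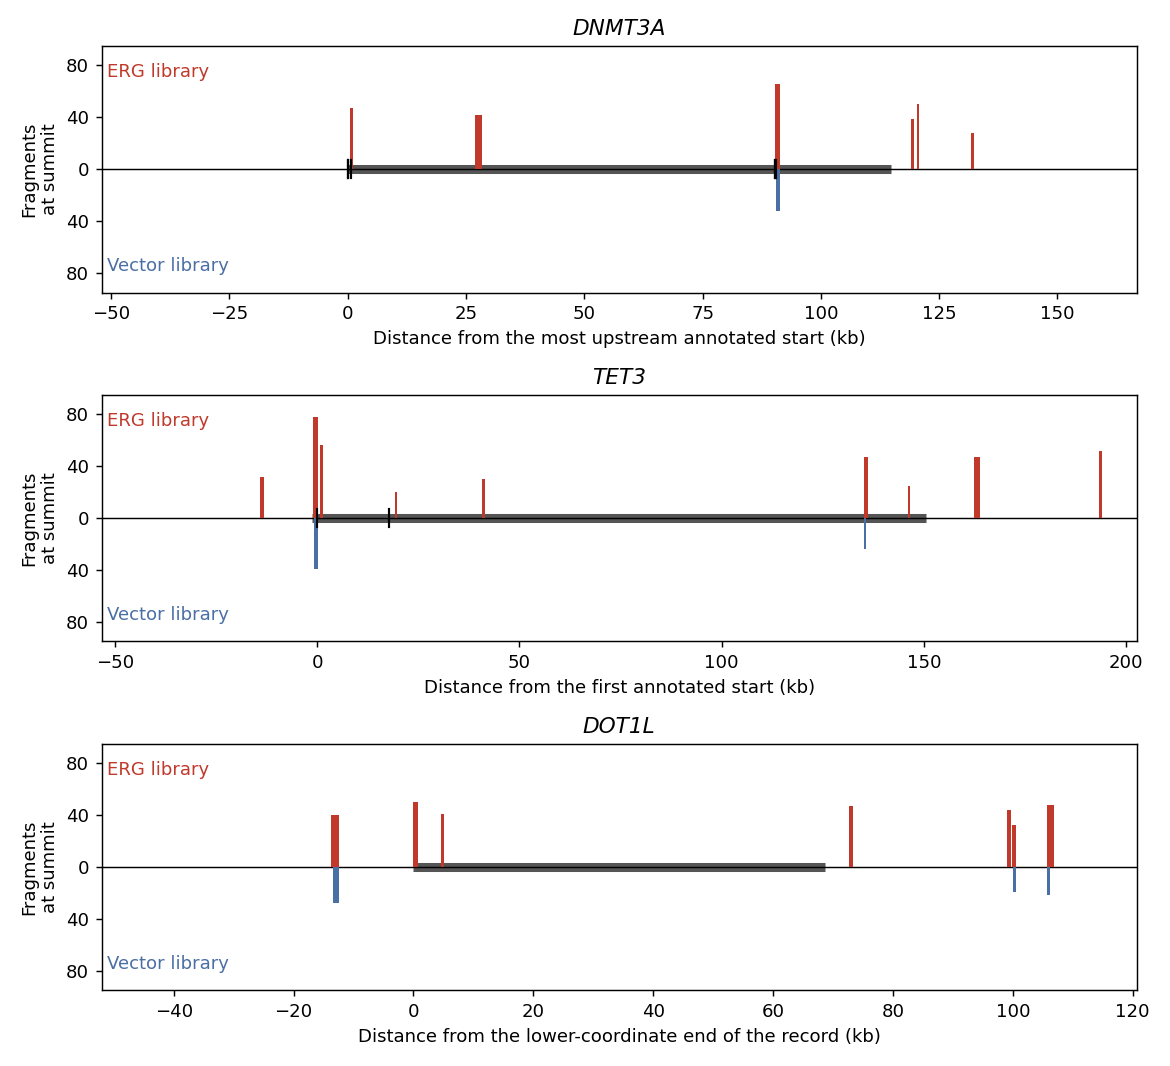
Peaks at DNMT3A, TET3 and DOT1L along the direction of transcription (for DOT1L along the chromosome), with bar height the fragments at the summit, ERG-library bars above the axis and Vector-library bars below it, the gene record as a grey bar and annotated starts as black ticks; peaks narrower than 0.6 kb are drawn 0.6 kb wide. DNMT3A has a bar below the axis at its internal starts alone, and DOT1L has none at the end of its record at 0 kb.

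At all 10 genes peaks covered more sequence in ERG cells, as they did at 73% of all coding genes. That share is taken over all coding genes, including those with no peak in either library, whereas every listed gene had peaks in both. TET3 had 7389 bp covered in ERG cells and 1352 bp in Vector cells, the largest difference of the list. DNMT3A followed with 4829 bp in ERG cells and 849 in Vector cells, DOT1L with 5384 bp in ERG cells and 1970 in Vector cells, KMT2A with 4546 bp in ERG cells and 1549 in Vector cells and DNMT1 with 5298 bp in ERG cells and 2451 in Vector cells. SUZ12 had 2543 bp in ERG cells and 578 in Vector cells, ASXL1 2607 bp in ERG cells and 1242 in Vector cells and EED 2052 bp in ERG cells and 980 in Vector cells. In DNMT1, DOT1L, EED, SUZ12 and KMT2A most of the length covered in ERG cells lay outside the gene record, counting the parts of start peaks beyond it. TET2 differed least, with 1348 bp in ERG cells and 1133 bp in Vector cells, although it had the highest fragment ratio. EZH2 came next, with 2261 bp in ERG cells and 1750 in Vector cells. The median difference was 2406 bp over the 10 genes, 801 bp over all coding genes and 1319 bp over coding genes with a start peak in both libraries. The listed genes are also long, from 42.9 kb (EED) to 152 kb (TET3), against medians of 24.1 kb over all coding genes and 32.8 kb over those with a start peak in both, and a longer gene gives a longer window. The part of gene length in the difference was not tested.

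**Figure D5:**
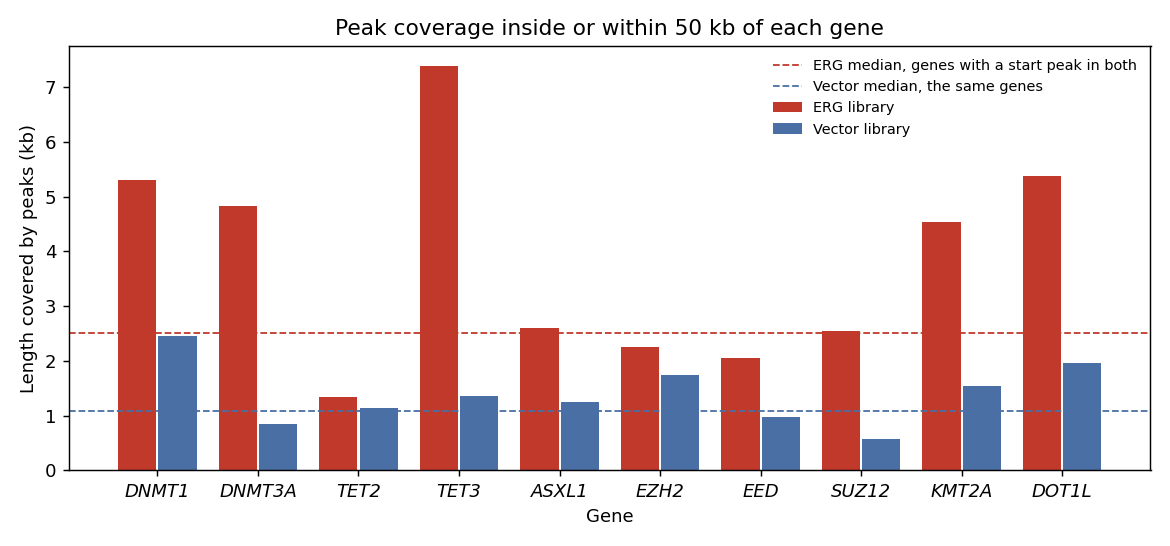
Length covered by peaks inside or within 50 kb of each gene, in kb, in ERG cells (left bar) and in Vector cells (right bar), with dashed lines at the medians of coding genes with a start peak in both libraries (2511 bp in ERG cells, 1092 bp in Vector cells). TET3 has the greatest coverage in ERG cells, and at TET2 the bars are nearly level.

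The partners of these enzymes were also divided, most of them carrying the mark at the start in each library and a smaller number in ERG cells only. Of 36 further genes in 5 lists of related factors, 24 had a start peak in each library, 10 in ERG cells alone, none in Vector cells alone, and 2 lacked one, against 31.1%, 15.4%, 0.339% and 53.1% of all coding genes. Those shares include coding genes with no start peak. Of all coding genes with an ERG-library start peak, 3093 had it in ERG cells alone and 6227 in both, beside 10 and 24 of the further genes. The median depth-scaled ratio at the 24 shared starts was 1.54, against 1.49 over all shared start peaks. The median covered difference was 2190.5 bp, against 801 bp over all coding genes and 1319 bp over those with a start peak in both libraries. Here too a longer gene gives a longer window, and the part of gene length was not tested.

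Of the 5 further DNA methylation genes, 2 had a start peak in each library. TET1, the third TET gene, had one in ERG cells alone with 16 fragments, and so did IDH2, whose mutant enzyme inhibits TET proteins, with 31. The IDH2 peak overlapped a Vector-library peak that lay farther than 1 kb from the start. DNMT3B, the second de novo methyltransferase, had none in either library.

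Of the 8 further PRC2 genes, 6 had a start peak in each library and 2 in ERG cells alone. These 2 were EZH1, the paralogue of EZH2, with 21 fragments in ERG cells and a covered length of 4150 bp there, against 0 bp in Vector cells, and PHF1, an accessory subunit, with 29 fragments and 2761 bp in ERG cells against 0 bp in Vector cells. RBBP4, a histone-binding subunit, had 197 fragments in ERG cells and 58 in Vector cells at its shared start peak, a ratio of 2.35. The same peak lies at the start of the neighbouring gene ZBTB8OS, so it cannot be assigned to RBBP4 rather than to ZBTB8OS. JARID2, which helps to recruit the complex, had 76 fragments in ERG cells and 32 in Vector cells, a ratio of 1.64. AEBP2 differed least in covered length, 1041 bp in ERG cells and 792 in Vector cells. Of the 10 further genes around ASXL1 and BAP1, 6 had a start peak in both, FOXK1, MBD5 and MBD6 in ERG cells alone, and ASXL3 in neither. The start peaks of FOXK1 and MBD6 overlapped a Vector-library peak farther than 1 kb from the start. HCFC1, a cofactor that BAP1 and KMT2A share, had 119 fragments in ERG cells and 52 in Vector cells, a ratio of 1.58, and FOXK2 had 81 fragments in ERG cells and 36 in Vector cells, a ratio of 1.56. Among those 6 and ASXL1, OGT differed least in covered length, 1039 bp in ERG cells and 479 in Vector cells.

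In the KMT2A complex, MEN1 (menin, which binds the start of the KMT2A protein) and RBBP5 had a start peak in ERG cells alone, with 25 and 59 fragments, and the other 6 genes had it in both. ASH2L, a core subunit, was covered over 7909 bp in ERG cells and 3824 in Vector cells, and PSIP1, which tethers menin to chromatin, over 721 bp in ERG cells and 713 in Vector cells. Around DOT1L, 5 of 6 partners had a start peak in both libraries and MLLT3, a reader of acetylated histones and a frequent fusion partner of KMT2A, in ERG cells alone with 29 fragments. At its overlapping start peaks MLLT10, a cofactor of DOT1L, had 107 fragments in ERG cells and 30 in Vector cells, a ratio of 2.47. AFF1, a fusion partner of KMT2A, had 106 fragments in ERG cells and 53 in Vector cells, a ratio of 1.39, and AFF4 had 36 fragments in ERG cells and 27 in Vector cells, a ratio of 0.923. MLLT1 had 37 fragments in ERG cells and 30 in Vector cells, a ratio of 0.854, and the smallest difference in covered length of that list, 1059 bp in ERG cells and 406 in Vector cells.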

How the data were processed

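H3K27ac was profiled in 2 libraries of F36P cells, 1 per group, from chromatin fixed with 1% formaldehyde and cut with micrococcal nuclease, per the labels' protocols. Bowtie2, MACS2, deepTools and hg38 are named, without versions, per the submitters' processing notes. Input libraries and the removal of duplicates are not given in the sources used. The deposited lists, called per library, give a score, a fold (a ratio over local background) and −log10 p- and q-values at each summit, all the authors' own, and the summit's distance from the peak start. Deposited −log10 q-values reach down to 1.31 for ERG and 1.32 for Vector, which is a q-value threshold of 0.05.

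From these, fragments and background were solved with MACS2's definitions, fold as fragments plus 1 over background plus 1 and p as a Poisson tail. The formulas were assumed, and the calculation was tested on simulated data. Read totals are unknown. Starts came from a RefSeq promoter table of GRCh38.p14, which held 15843 of 20037 coding genes, and both record ends stood in for the other 4194. Python 3.11.15, pandas 2.3.3, NumPy 2.4.6 and SciPy 1.17.1 were used. One marker gene is not reported here. Members and lists were chosen with earlier results of these data known. In the partner lists, genes named are those with a start peak in 1 library or neither, plus, per list, the 3 largest and the smallest covered difference among the others.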

Additional observations from a re-analysis of the deposited data

How the results depend on the processing

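DOT1L was the gene with a start peak in ERG cells alone under a 2.5 kb window, a −log10 q-value of at least 3, an ERG list limited to as many peaks as the Vector list holds, and both scalings of the ERG list, the last 2 chosen after seeing the data. With either end of the gene record it was joined by DNMT3A, 2 genes in all. The number of unshared ERG-library peaks, 25, was 10 of 26 peaks with the limited ERG list, 15 of 25 with a 10 kb window, and 20 to 25 under the other 4 settings run. The median covered difference, 2406 bp, was 1119 bp with the limited list and 1234 bp with a 10 kb window. The median depth-scaled ratio, 1.39, was 0.968 with depth from the median ratio of all shared peaks and 0.953 as the quotient of the deposited folds, so whether these starts lie above 1 depends on the scaling. In all, 8 of 32 recomputed values moved. No paired analysis was possible because each group holds 1 library. At these depths the weakest peaks held 9 fragments for ERG and 8 for Vector, and a missing peak does not show that acetylation was absent.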
